A study of Homo sapiens with 6 samples.

Results

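The intermediate filament genes examined here are 6 keratins of epithelial cells (KRT7, KRT8, KRT18, KRT19, KRT10 and KRT80) and vimentin (VIM). They were chosen by gene name: every probe that the platform annotation assigns to one of these 7 genes, of the 18852 genes it names, was taken, which gave 10 of the 48801 probes on the array. Their RNA was read in the human ovarian carcinoma cell line IGROV-1. Cells were kept for 24 h in culture medium diluted 1:1 with cell-free ascites of mice that bore IGROV-1 tumours in the peritoneum. For the CpG ascites group (3 arrays) the donor mice had been given CpG-ODN into the peritoneum, at 20 µg per mouse. For the saline ascites group (3 arrays) the donor mice had been given saline. All 6 samples therefore received tumour ascites, and no sample without ascites was analysed here. CpG-ODN was given once or on 3 consecutive days, and the labels do not say which schedule each ascites came from. Each group had 3 mice. Whether its arrays stand for separate mice or separate cultures is not stated in the labels, so every p-value below reflects the spread among these arrays, and part or all of it may be technical.

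Keratins form the intermediate filaments of epithelial cells. Each filament is built from pairs of a type I and a type II keratin, so that a keratin of one type is stable only with a partner of the other. KRT8 (type II) and KRT18 (type I) are the first pair made in simple epithelia, and KRT7 (type II) and KRT19 (type I) are added in ducts, mesothelium and most ovarian carcinomas. Vimentin forms filaments by itself and is typical of mesenchymal cells, and many carcinoma cells carry it beside keratins. A shift from keratins towards vimentin is the classical sign of an epithelial to mesenchymal transition. In the RefSeq gene table KRT7, KRT8, KRT18 and KRT80 lie on chromosome 12, where the models of KRT8 and KRT18 overlap. KRT10 and KRT19 lie on chromosome 17 and VIM on chromosome 10.

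The agent that separates the groups was ODN1826, a phosphorothioate oligodeoxynucleotide of 20 bases that activates Toll-like receptor 9. Its sequence is shown because it is the only designed difference between the groups, and the capitals mark the hexamer GACGTT, which occurs 2 times and holds both CpG dinucleotides.
ODN1826: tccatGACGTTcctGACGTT
The oligodeoxynucleotide was given to the mice and was not added to the cells, and whether any of it remained in the ascites was not measured here.

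Mean probe intensity was 587 to 788 per array, and 13303 to 13835 probes per array were above background, meaning a detection p-value under 0.01. CpG ascites replicate 1 stood apart, with a Pearson correlation of at most 0.958 to any other array across probes, against 0.978 to 0.992 among the other 5 arrays. It also had 418 probes that were not above background there but were on all other arrays, against 27 to 110 such probes on each of the others. The fitted changes below are therefore given with and without it, apart from those of a pseudogene probe and of further probes of genes outside the keratins and vimentin. Of the labelled cell type, PAX8, EPCAM and FOLR1 were above background on all 6 arrays, while the probes of MUC16 and WT1 were above background on 0 arrays. MSLN was above background on 2 CpG arrays and CDH1 on 3, and both on 0 saline arrays. Markers of other cells were mostly at background: 5 of 5 fibroblast genes on every array, and PTPRC, CD3E and CD14 among leukocyte genes. The lysosomal gene CD68 and the endothelial gene VWF were above background on all 6 arrays. The summed linear signal of the 5 leukocyte genes was 2926 to 3511 in CpG ascites and 3028 to 3337 in saline ascites. That of the 3 endothelial genes was 484 to 628 in CpG ascites and 765 to 960 in saline ascites. On at least 3 arrays only CD68 of the leukocyte sum and only VWF of the endothelial sum were above background. VWF was lower on every CpG array than on any saline array, as were 9.82% of all probes above background on at least 3 arrays. Its log2 change was -0.83 ± 0.19 (SE), or -0.67 without CpG ascites replicate 1 (limma, adjusted p = 0.193 and 0.134). The cultures were of the IGROV-1 line in cell-free ascites, and the source of the CD68 and VWF signals was not tested.

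The comparison asked whether the keratin and vimentin transcripts of the tumour cells differed between CpG ascites and saline ascites. KRT7, KRT10, KRT19, KRT80 and VIM were above background on every array in both groups, and their levels in the groups were within a log2 difference of 0.23 of each other on every probe. KRT18 was not above background on CpG ascites replicate 1 and was above it on the other 5 arrays. KRT8 was not above background on any array. Intensities are given on the log2 scale after background correction and quantile normalisation, and groups were compared with the linear models of limma over the 13713 probes that were above background on at least 3 arrays, called kept or measured below. Of the 9 measured keratin and vimentin probes, 0 passed the test over all probes at an adjusted p under 0.05, as did 0 of all 13713 probes kept (0%). At an unadjusted p under 0.05 there were also 0 of the 9, where 12.8% of all probes kept had such a p (6.86% higher and 5.97% lower in CpG ascites). The groups did not overlap at 1 of the 9 probes, KRT19, which was higher in CpG ascites; over all probes kept this share was 20.7%, with 10.9% higher and 9.82% lower in CpG ascites. The median log2 change of the 9 probes was 0.0078, against -0.00037 over all probes kept. In a culture lysate, fewer cells with a transcript and less of it per cell cannot be told apart.

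**Figure D1:**
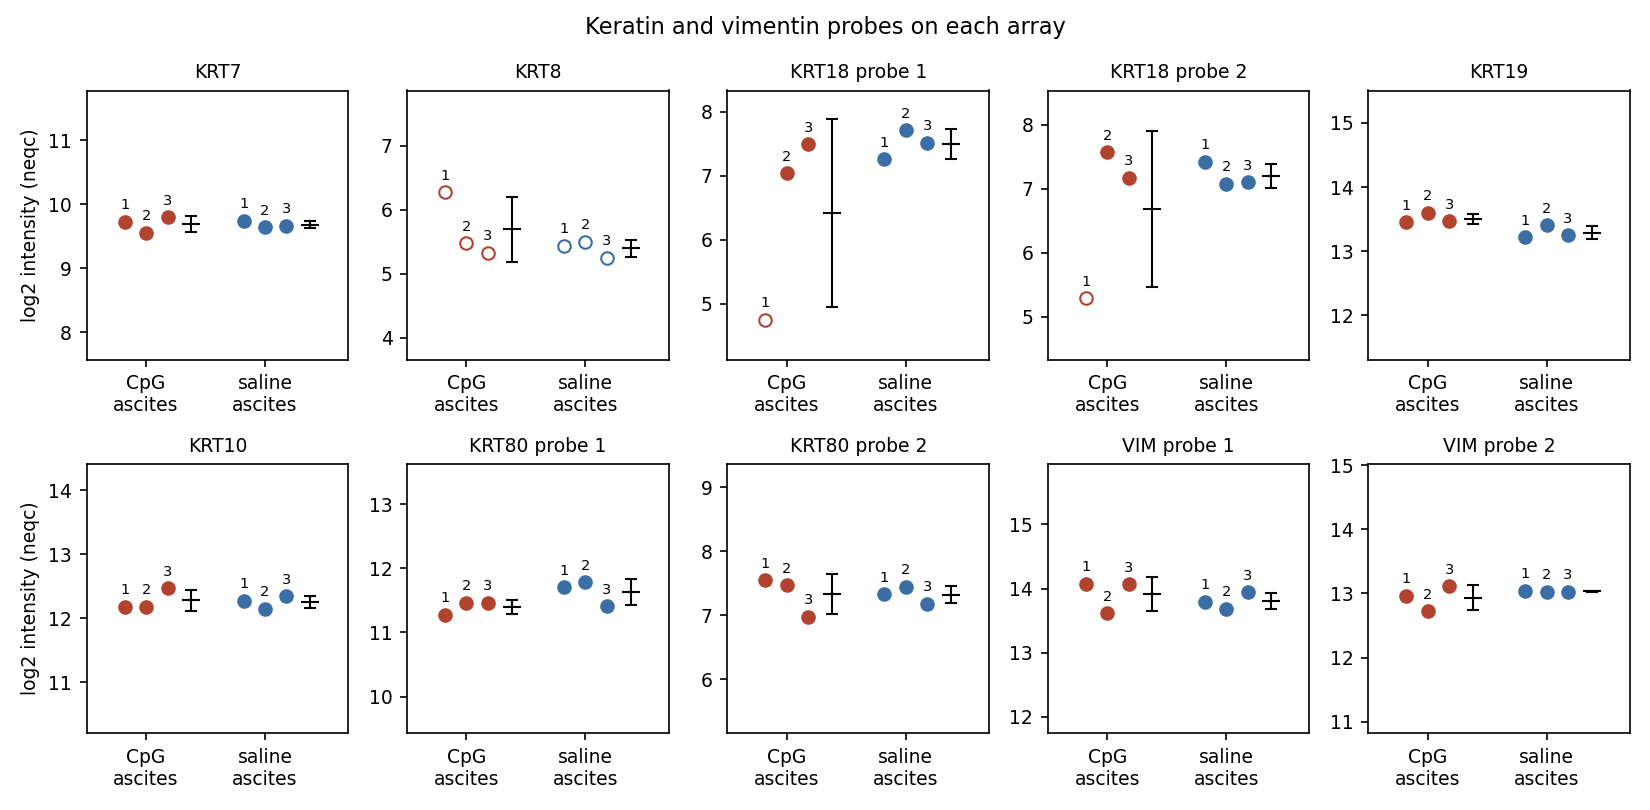
Each panel shows 1 probe, with normalised log2 intensity on the vertical axis (the same span in every panel) and the arrays of CpG ascites (red) left of those of saline ascites (blue), numbered by replicate. Filled points are above background, open points are not, and the black bars give mean and SD of 3 arrays; both KRT18 probes drop to background on CpG ascites replicate 1 only, while KRT8 is at background throughout, and open points have no measured level.

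Among the type II keratins, KRT7 is the usual marker of ovarian and other ductal carcinomas. Its log2 intensity was 9.72, 9.55 and 9.80 in CpG ascites replicates 1, 2 and 3, against 9.74, 9.64 and 9.67 in saline ascites replicates 1, 2 and 3. The groups overlapped, and the saline values lay inside the range of the CpG values. The means were 9.69 ± 0.13 in CpG ascites and 9.68 ± 0.054 in saline ascites (SD, n = 3 each), a log2 change of 0.0078 with a 95% interval of -0.28 to 0.30 (limma, adjusted p = 0.984). An effect larger than 1.23-fold in either direction lies outside that interval. The change was -0.0088 without CpG ascites replicate 1, with an interval of -0.32 to 0.30.

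KRT8, the type II partner of KRT18, was represented by 1 probe. Its unprocessed intensity was 151, 139 and 121 in CpG ascites and 136, 139 and 129 in saline ascites, with detection p-values of 0.0145, 0.0606 and 0.0922 in CpG ascites and 0.0817, 0.0659 and 0.123 in saline ascites. No array passed the detection threshold, so the probe was not tested and no fold is given. This says only that the probe gave no signal well above background. RefSeq lists 52 pseudogenes of KRT8 and 68 of KRT18. Probe sequences were not used here, so signal from such copies cannot be told apart from that of the genes at the KRT8 and KRT18 probes.

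KRT80, an epithelial type II keratin found near desmosomes, had 2 probes annotated to the same transcript. On the brighter probe the log2 intensity was 11.27, 11.47 and 11.47 in CpG ascites, against 11.70, 11.78 and 11.41 in saline ascites. Saline ascites replicate 3 lay between the lowest and the higher CpG values, and the other saline arrays lay above all CpG arrays. The log2 change was -0.23 ± 0.15 (SE), with an interval of -0.57 to 0.11 (limma, adjusted p = 0.530), and -0.17 without CpG ascites replicate 1. The dimmer probe had 7.55, 7.47 and 6.98 in CpG ascites, against 7.33, 7.44 and 7.18 in saline ascites. It had a log2 change of 0.012 ± 0.18 (SE) with an interval of -0.41 to 0.43, or -0.095 without CpG ascites replicate 1. The intervals of the 2 probes overlapped widely, and their difference was not tested. Their values lay on the same side of their own means on 4 of 6 arrays.

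Among the type I keratins, KRT18 had 2 probes, annotated to different transcript variants of the gene. Probe 1 had an unprocessed intensity of 87.0, 253 and 241 in CpG ascites replicates 1, 2 and 3, against 237, 315 and 292 in saline ascites. Probe 2 had 115, 325 and 212 in CpG ascites, against 252, 237 and 243 in saline ascites. On both probes CpG ascites replicate 1 was the only array not above background, with detection p-values of 0.851 and 0.113, while the highest on the other arrays was 0.00395 for probe 1 and 0.00527 for probe 2. After normalisation probe 1 had a log2 intensity of 4.75, 7.03 and 7.49 in CpG ascites, against 7.26, 7.71 and 7.52 in saline ascites. Probe 2 had 5.29, 7.57 and 7.17 in CpG ascites, against 7.42, 7.08 and 7.10 in saline ascites. Both probes thus had 1 array at background, and on the remaining CpG arrays they ordered the replicates in opposite ways.

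Because the values of CpG ascites replicate 1 are at background, only a bound is measured there. Against the lowest signal above background on that array, probe 1 was at least 1.77-fold and probe 2 at least 1.44-fold below the saline mean. Over all 6 arrays the fitted log2 change of KRT18 was -1.07 ± 0.64 (SE) on probe 1 and -0.52 ± 0.53 on probe 2, with intervals of -2.55 to 0.41 and -1.76 to 0.72 (limma, adjusted p = 0.507 and 0.692). These fits take the background values as they stand, so their size is not a measured fold. Without CpG ascites replicate 1 the changes were -0.23 ± 0.19 and 0.17 ± 0.17, opposite in sign, with intervals of -0.67 to 0.20 and -0.23 to 0.57 (adjusted p = 0.608 and 0.694). The KRT18 difference over all arrays therefore rests on 1 array.

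The SD within groups over the 5 arrays without CpG ascites replicate 1 was 0.26 and 0.23 for KRT18 probes 1 and 2, at percentiles 82.5 and 74.7 of all probes kept. It was 0.099 for KRT19 and 0.11 for KRT7, at percentiles 22.0 and 26.5. The dimmer KRT80 probe was at percentile 75.1 and VIM probe 1 at 70.6, close to KRT18 probe 2. The brighter KRT80 probe, VIM probe 2 and KRT10 were at percentiles 51.1, 50.5 and 42.7. On CpG ascites replicate 1 the deviations from the saline mean were 0.041 for KRT7, 0.16 for KRT19, -0.073 for KRT10 and -0.36 for the brighter KRT80 probe. They were 0.23 for the dimmer KRT80 probe, and 0.27 and -0.071 for VIM probes 1 and 2.

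KRT19, the smallest keratin, which nearly lacks the tail domain and pairs with KRT7 and KRT8, was the only probe without overlap. Its log2 intensity was 13.45, 13.60 and 13.46 in CpG ascites, against 13.21, 13.40 and 13.25 in saline ascites. The lowest CpG array lay just above saline ascites replicate 2, and the highest was CpG ascites replicate 2. The means were 13.50 ± 0.082 in CpG ascites and 13.29 ± 0.10 in saline ascites (SD, n = 3 each), a log2 change of 0.21 ± 0.12 (SE) or 1.16-fold, with an interval of -0.074 to 0.50. It did not pass the test (limma, adjusted p = 0.498). With every array scaled to the same median instead of quantile normalisation the groups overlapped, with a log2 change of 0.28. The log2 change was 0.24 ± 0.13 without CpG ascites replicate 1 (adjusted p = 0.433).

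KRT10, the type I keratin of differentiating epidermis, had a log2 intensity of 12.18, 12.18 and 12.47 in CpG ascites, against 12.28, 12.14 and 12.34 in saline ascites. The groups overlapped, with CpG ascites replicate 3 as the highest array. The log2 change was 0.024 ± 0.14 (SE), with an interval of -0.30 to 0.34 (limma, adjusted p = 0.951), and 0.072 without CpG ascites replicate 1.

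Vimentin had 2 probes annotated to the same transcript. Probe 1 had a log2 intensity of 14.07, 13.61 and 14.07 in CpG ascites, against 13.79, 13.68 and 13.94 in saline ascites. Probe 2 had 12.96, 12.73 and 13.11 in CpG ascites, against 13.04, 13.03 and 13.02 in saline ascites. The groups overlapped on both probes, and CpG ascites replicate 2 was the lowest array on each. The log2 change was 0.11 ± 0.17 (SE) on probe 1 and -0.099 ± 0.14 on probe 2, opposite in sign, with intervals of -0.28 to 0.50 and -0.42 to 0.22 (limma, adjusted p = 0.793 and 0.775). Without CpG ascites replicate 1 they were 0.033 and -0.11.

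**Figure D2:**
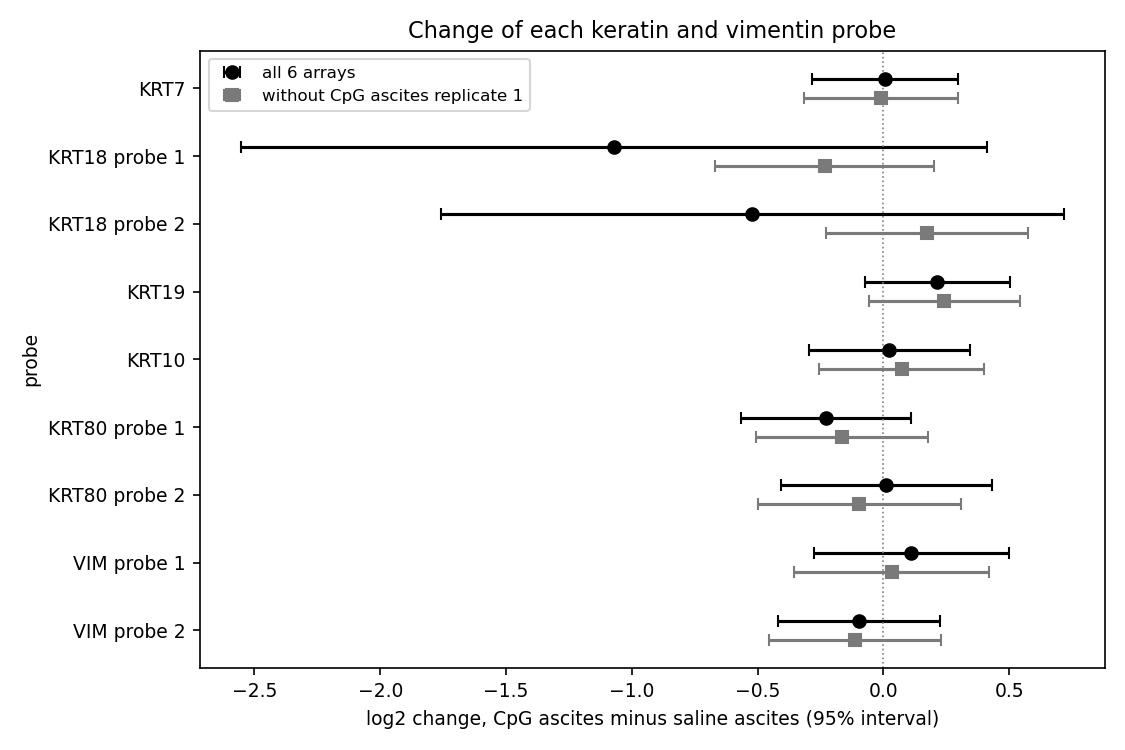
The horizontal axis gives the fitted log2 change, CpG ascites minus saline ascites, with its 95% interval, for the 9 measured probes listed down the page; black circles use all 6 arrays and grey squares leave out CpG ascites replicate 1. Every interval includes 0, and those of the KRT18 probes, whose CpG ascites replicate 1 is at background, are the widest over 6 arrays and narrow without it.

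The balance of keratins against vimentin was read as a difference within each array. For each keratin the log2 intensity minus that of VIM probe 1 was set to 0 at the saline mean. For KRT19 this difference was -0.11, 0.50 and -0.085 in CpG ascites, against -0.061, 0.24 and -0.18 in saline ascites. For KRT7 it was -0.23, 0.063 and -0.15 in CpG ascites, against 0.073, 0.079 and -0.15 in saline ascites. For KRT10 it was -0.34, 0.12 and -0.044 in CpG ascites, against 0.035, 0.014 and -0.049 in saline ascites. For the brighter KRT80 probe it was -0.62, 0.029 and -0.42 in CpG ascites, against 0.085, 0.27 and -0.36 in saline ascites. The groups overlapped for all 4 of these keratins. For KRT18 probe 1 it was -3.01, -0.27 and -0.27 in CpG ascites, against -0.23, 0.34 and -0.11 in saline ascites, so the groups did not overlap, by a margin of 0.041 log2 units, with CpG ascites replicate 1 at background. In a recount over all probes, chosen after these values were seen, the groups overlapped when KRT18 probe 2, VIM probe 2 or both were used instead: of 14 pairs of a keratin probe with a VIM probe, this 1 alone was without overlap. No test was made of these differences.

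The genes whose profile was most like each keratin or vimentin were taken from the 8426 named genes above background on all arrays. Each gene was read by its most intense probe, so for KRT80 and VIM the likeness is to the brighter probe only. The measure was the root mean square difference of the centred log2 values over 6 arrays, which share their scaling and the array that stood apart. No likeness is given for KRT18, since its value on CpG ascites replicate 1 is only a bound. CLP1, an RNA kinase of tRNA splicing, was nearest to KRT7 at 0.0132, where KRT7 itself varied by 0.079 around its mean. RTN4IP1 was nearest to KRT19 at 0.0305, followed by the replicative helicase gene MCM5 at 0.0418. MRPL41, a protein of the mitochondrial ribosome, was nearest to KRT10 at 0.0364, and ABTB1 to KRT80 at 0.0424. NQO2, a quinone reductase gene, was nearest to VIM at 0.0423, followed by ACTN4, which encodes an actin crosslinking protein, at 0.0458. Around their own means KRT19 varied by 0.131, KRT10 by 0.112, KRT80 by 0.173 and VIM by 0.179.

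Other genes of the intermediate filament system were read from lists, each gene by its most intense probe, and 0 genes of any list passed the test over all probes, with or without CpG ascites replicate 1. Counts without overlap below stand against 10.9% of all probes kept that were higher and 9.82% that were lower in CpG ascites without overlap. Of 42 other keratins on the array only KRT23 and KRT24 were measured, with a median log2 change of 0.14, or 0.071 without CpG ascites replicate 1. KRT24 had a log2 change of 0.16 ± 0.13 (SE) without overlap, and KRT23 0.12 ± 0.16 with overlap, or 0.12 and 0.018 without that array. KRT23 was above background on 3 CpG arrays and 1 saline array, so the size of its change is not a measured fold. Of the other intermediate filament genes 6 of 15 were measured, with 1 higher and 1 lower without overlap and a median log2 change of 0.033, or 0.084 without CpG ascites replicate 1. LMNA, which encodes the nuclear lamins A and C, had -0.32 ± 0.17 (SE) without overlap on its brighter probe, and -0.15 without CpG ascites replicate 1 (limma, adjusted p = 0.472 and 0.633). Its other probe had -0.18 ± 0.19 with overlap. BFSP1, which encodes filensin of the lens, was above background on all CpG arrays and on 0 saline arrays. Its level in CpG ascites was at least 1.6-fold higher, or at least 1.44-fold without CpG ascites replicate 1. The adjusted p of 0.202 and 0.153 (limma) belongs to fits on background saline values, not to these bounds. BFSP1 was kept only through its CpG arrays and is the 1 gene higher without overlap in this list.

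Desmosomes and plakins anchor keratin filaments at cell junctions, and 10 of their 21 genes were measured, 2 of them higher and 0 lower without overlap, with a median log2 change of -0.036. Over all 6 arrays the change was above 0 for 3 of the 10 genes and below 0 for 7. The median was 0.056 without CpG ascites replicate 1, so the list has no settled direction. JUP, which encodes plakoglobin, had a log2 intensity of 10.97, 10.08 and 10.23 in CpG ascites, against 9.44, 9.49 and 9.60 in saline ascites. The lowest CpG array lay above the highest saline array, and the log2 change was 0.92 ± 0.23 (SE), or 0.65 without CpG ascites replicate 1 (limma, adjusted p = 0.230 and 0.0922). DSP, which encodes desmoplakin, the direct link of keratin to the desmosome, had 11.31, 10.42 and 10.54 in CpG ascites, against 10.31, 10.31 and 10.25 in saline ascites. Its log2 change was 0.47 ± 0.23 (SE), or 0.19 without CpG ascites replicate 1 (adjusted p = 0.443 and 0.510), and 0.21 ± 0.25 with overlap on a dimmer probe. For both genes CpG ascites replicate 1 was the highest array, whereas for KRT18 it was the lowest.

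Of the genes that bind or regulate keratins, 12 of 15 were measured, 1 higher and 0 lower without overlap. Their median log2 change was 0.049, or 0.019 without CpG ascites replicate 1, and -0.048 when the probes of each gene were averaged, so the list has no settled direction. FAM83H, which recruits casein kinase 1 to keratin filaments, had a log2 change of 0.55 ± 0.22 (SE), and 0.30 without CpG ascites replicate 1 (limma, adjusted p = 0.368 and 0.356). TRADD, an adaptor of TNF receptor 1 that binds KRT18, had 0.69 ± 0.24 with overlap, and 0.73 without that array (adjusted p = 0.320 and 0.253). It was above background on 3 CpG arrays and 1 saline array, so the size of its change is not a measured fold.

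Of the transcription regulators of epithelial identity, 5 of 15 were measured, 2 higher and 0 lower without overlap, with a median log2 change of 0.053, or 0.14 without CpG ascites replicate 1. These 2 were the ETS factors ELF3, at 0.80 ± 0.16 (SE), and EHF, at 1.16 ± 0.21, the second above background on 3 CpG arrays and 2 saline arrays (limma, adjusted p = 0.171 and 0.157). Without CpG ascites replicate 1 they had 0.83 and 1.02 (adjusted p = 0.0954 and 0.0925). Both EHF fits take a background value in saline ascites as it stands, so their size is not a measured fold. The other 3 were KLF4 at 0.053, TFAP2A at -0.098 and KLF5 at -0.35, all with overlap, or -0.11, 0.14 and -0.43 without that array. These 3 were singled out, since they are not the 2 genes with the smallest p. Further TFAP2A probes had -0.36 ± 0.37, -0.029 ± 0.12 and -0.50 ± 0.42 (SE), all with overlap. Of the regulators of mesenchymal identity, ZEB1 and TWIST1 were measured of 9 genes, with log2 changes of -0.13 ± 0.21 (SE) and -0.034 ± 0.13, both with overlap, or -0.36 and 0.0045 without CpG ascites replicate 1. The probes of SNAI1, SNAI2 and ZEB2 were not kept. The median of these 2 was -0.082, or -0.18 without CpG ascites replicate 1.

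The mesenchymal genes, 7 of 15 measured, had a median log2 change of 0.065, or 0.096 without CpG ascites replicate 1, with 2 higher and 0 lower without overlap. TGM2, which encodes a transglutaminase that crosslinks matrix, had 0.48 ± 0.15 (SE) without overlap on its brighter probe and 0.071 ± 0.20 with overlap on another. ACTA2, the smooth muscle actin gene, had -0.32 ± 0.16 with overlap. Without CpG ascites replicate 1 TGM2 had 0.45 on its brighter probe and ACTA2 had -0.23. The probes of FN1 and CDH2, both standard mesenchymal markers beside vimentin, were not kept.

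The epithelial surface genes, 7 of 9 measured, had a median log2 change of 0.50, or 0.35 without CpG ascites replicate 1, and 0.38 when the probes of each gene were averaged. The median was 0.47, 0.60 and 0.083 on CpG ascites replicates 1, 2 and 3, so it was low on the third. Of the 7, 3 were higher and 0 lower without overlap. MUC1, a membrane mucin gene, had 10.58, 10.78 and 10.52 in CpG ascites, against 9.82, 9.83 and 10.21 in saline ascites, a log2 change of 0.67 ± 0.16 (SE), and 0.81 ± 0.27 on a dimmer probe. CLDN7, a tight junction gene, had 0.50 ± 0.17. Without CpG ascites replicate 1 MUC1 had 0.70 on its brighter probe and CLDN7 had 0.64. CDH1, which encodes E-cadherin, was above background on 0 saline arrays and was at least 1.49-fold higher in CpG ascites, or at least 1.14-fold without CpG ascites replicate 1. The adjusted p of these 3 genes was 0.193, 0.309 and 0.313 (limma). That of CDH1 belongs to a fit on background saline values, not to the bound. CDH1 was kept only through its CpG arrays, yet it counts in the list median and among the 3 genes without overlap. The other 4 overlapped between groups: CD24 had a log2 change of 0.50 ± 0.20 (SE), EPCAM 0.042 ± 0.13, CLDN3 -0.030 ± 0.19 and CD9 -0.089 ± 0.23, and without CpG ascites replicate 1 they had 0.35, 0.12, 0.059 and -0.37. A second EPCAM probe had -0.19 ± 0.17, and a second CD24 probe 0.25 ± 0.18. Genes other than MUC1 and CLDN7 were named here after their values were seen. Keratins and this list were not tested against each other.

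**Figure D3:**
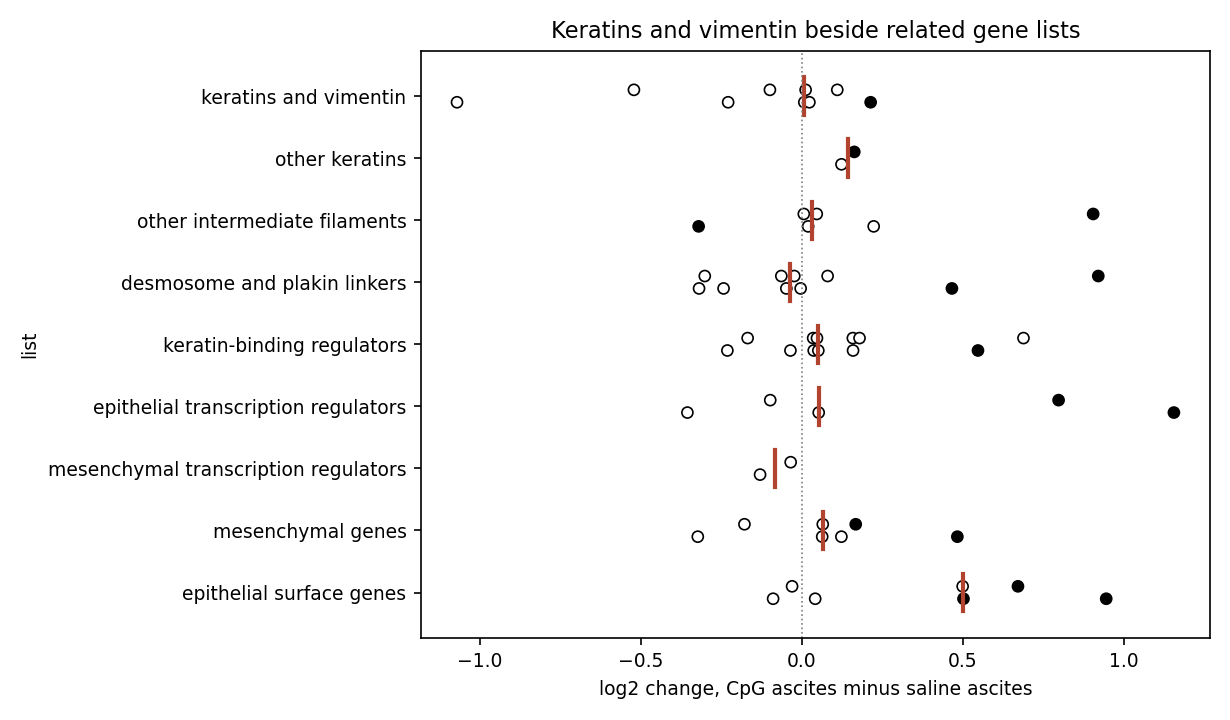
The horizontal axis gives the fitted log2 change, CpG ascites minus saline ascites, of each measured gene (for keratins and vimentin, each probe), with the lists down the page. Filled points are those whose groups do not overlap, open points those that do, and the red bar is the median of the list, which is 0.0078 for keratins and vimentin and 0.50 for epithelial surface genes. CDH1 and BFSP1 are at background on all saline arrays. Both KRT18 probes, EHF, TRADD, KRT23, PKP2 and PKP3 are at background on part of the arrays. The points of all these are not measured folds.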

How the data were processed

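Total RNA was hybridised to 1-colour Illumina bead arrays, which the authors summarised with BeadStudio (version not stated), per the submitters' processing notes. The deposited table gives probe intensity, not normalized per the file headers, and a detection p-value per probe and array. A second deposited table holds the authors' processed intensity, on a linear scale, which served as an alternative; the normalization method is not stated. Groups and replicates came from the sample titles.

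Intensities were background corrected, quantile normalized and put on a log2 scale with neqc of limma 3.58.1 in R 4.3.3, with an offset of 16 and controls inferred from the detection p-values. A probe was kept if at least 3 of the 6 arrays, of either group, gave it a detection p-value under 0.01: 13713 of 48801, and 9 of the 10 keratin and vimentin probes. Probes were named by the platform annotation, in which 28097 have 1 symbol, 13 have several and 20691 have none; symbols were updated by gene number. Groups were compared with lmFit and eBayes over all probes kept, two-sided, adjusted by Benjamini and Hochberg, with a threshold of 0.05. The fits were also run on simulated data with independent noise and no array standing apart. That run therefore says nothing about the effect of CpG ascites replicate 1. A bound ("at least") sets the brighter mean against the lowest signal above background on each dim array, or the probe's own value where higher.

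Named list genes are, from each list, up to 4 past the threshold or otherwise the 2 with the smallest p; those with a nearest profile follow the measure given, except that none is given for KRT18, and others are said to be singled out. Genes and lists were chosen with earlier results of these data known. The number of arrays limits precision.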

Additional observations from a re-analysis of the deposited data

How the results depend on the processing

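Over 133 recalculations of the 9 keratin and vimentin probes with the other settings, 0 passed the adjusted threshold, 121 kept their sign and 12 did not. The mean-variance trend, the replicate number as a block and a changed probe filter leave the fitted change unchanged. Recalculations with these settings could not turn the sign and say nothing about its stability. Probes called over the whole array, 0 in the comparison as reported, were 1 with no background correction, 1 with the authors' processed values, 14 with a mean-variance trend (0 of them keratin or vimentin probes) and 0 to 21 with 1 array left out, the 21 without CpG ascites replicate 1. Keratin or vimentin probes without overlap, 1 as reported, were 0 with median scaling and 1 to 4 with 1 array left out. Over all probes kept the share without overlap was 20.7% as reported, 15.5% with median scaling and 27.2% to 37% with 1 array left out. Unadjusted p under 0.05, at 1759 probes as reported, was reached by 962 to 2318 with 1 array left out and by 3978 with no filter on dim probes. Among keratin and vimentin probes, 0 of which reached it as reported, KRT19 did so with a mean-variance trend. KRT18 probe 1 did so without CpG ascites replicate 3, in a fit that takes its background value as it stands. With 1 array left out the log2 changes ran from -0.045 to 0.077 for KRT7, -0.97 to 0.17 for KRT18 probe 2, -0.072 to 0.072 for KRT10, -0.095 to 0.19 for the dimmer KRT80 probe, -0.19 to 0.0054 for VIM probe 2, -0.36 to 0.013 for ZEB1 and -0.10 to 0.029 for TWIST1. KRT7 turned to -0.027 with array weights, and TWIST1 to 0.028 with median scaling and 0.015 with array weights; the cause was not tested. KRT18 probe 1 ran from -1.60 to -0.23. Same-numbered arrays did not deviate together (correlation of deviations -0.10, 0.014 and -0.021). With the replicate number as a block 0 probes were called, 0 of them keratin or vimentin probes. The count without overlap does not use the block. A block for the slide was not run, since the column names give none. Median scaling moved the median of all probes by 0.080. At KRT8, and at KRT18 on 1 array, signal at background limits what can be measured.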

Other observations

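A probe annotated to KRT17P5, a pseudogene of the type I keratin KRT17, was above background on all 6 arrays and was singled out after its values were seen. Its log2 intensity was 7.56, 7.67 and 8.09 in CpG ascites, against 7.23, 7.51 and 7.45 in saline ascites. The groups did not overlap, where 10.9% of all probes kept were higher in CpG ascites without overlap. The log2 change of 0.38 ± 0.17 (SE) did not pass the test (limma, adjusted p = 0.416). The change without CpG ascites replicate 1 is not given. Another probe annotated to KRT17P5 was above background on 0 arrays. No probe is annotated to KRT17 in the annotation used here, so signal of the gene and of its copy cannot be told apart.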
